A study of Mus musculus with 25 samples.

Results

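The microRNA miR-128 was followed with age in blood from C57BL/6 mice, all male, at 2, 9, 15, 24 and 30 months. Its precursors are the hairpins mmu-mir-128-1 and mmu-mir-128-2, written mir-128-1 and mir-128-2 from here on and taken by name as 2 rows of a table of 1193 microRNA hairpins. Each age had 5 small RNA libraries made from total RNA of blood with the TruSeq small RNA kit, and every title carries its own number, taken here to mark 25 separate animals. The labels name no treatment and no genetic change. The series asks how blood microRNAs differ with age, and the account here covers the miR-128 pair.

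A microRNA is cut from a hairpin by Drosha and Dicer, and 1 or both arms are loaded into Argonaute, where bases 2 to 8 of the mature strand, the seed, pair with target messenger RNAs. miR-128 is best known from the brain, where it is abundant in neurons and restrains excitability, and it is also made in blood-forming cells. Its hairpins lie inside protein-coding genes. R3hdm1 encodes a protein with an R3H nucleic acid binding domain, and Arpp21 encodes a cyclic AMP-regulated phosphoprotein, also with an R3H domain, known from striatal neurons and from developing thymocytes.

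The hairpin mir-128-1 lies at chr1:128202361-128202430 on the plus strand of GRCm38.p6, in intron 19 of 26 of an R3hdm1 transcript in GENCODE vM21, 5263 bases from the nearest exon of that transcript. The hairpin mir-128-2 lies at chr9:112118636-112118711 on the minus strand, in intron 19 of 20 of an Arpp21 transcript. That intron is a stretch of 51873 bases, and the hairpin lies 471 bases from the nearest exon of that transcript. Each hairpin has the strand of its host gene, and no annotated transcript of either host has an exon across it. Only 2 of 16 R3hdm1 transcripts and 9 of 31 Arpp21 transcripts hold the hairpin in an intron, and the others do not span it. These are RefSeq positions of the named hairpins, and the sources used here name no build for the authors' alignment. The whole hairpins are shown, with the miR-128-3p arm in capitals, because that arm is the same in both and the flanks are not.
mir-128-1: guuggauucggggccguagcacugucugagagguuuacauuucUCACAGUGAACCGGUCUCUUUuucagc
mir-128-2: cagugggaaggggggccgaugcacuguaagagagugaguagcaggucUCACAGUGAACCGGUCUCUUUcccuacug

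The longest run shared by the hairpins has 23 bases, namely the 21 bases of the 3p arm and 2 bases before it. After the arm the hairpins differ at once, with u in mir-128-1 and c in mir-128-2. A read of the exact 3p arm therefore fits both hairpins, while a read of a 5p arm, or one that runs past the 3′ end of the 3p arm in the genome's letters, fits a single one. The deposited counts are per hairpin and separate neither the arms nor reads that fit several places. The mature strands are shown with the seed in capitals.
miR-128-3p, both hairpins: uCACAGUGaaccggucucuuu
miR-128-1-5p: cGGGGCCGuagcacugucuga
miR-128-2-5p: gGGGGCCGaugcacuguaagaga

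The 5p arms, of 21 and 23 bases, have the same seed, and no other mature microRNA in the RefSeq table had the seed of either arm. miR-27a and miR-27b are shown because their seeds overlap it. Bases 3 to 9 of their 3p strands spell the miR-128-3p seed 1 base further in, so their seeds are shifted against it and not equal to it. The shared stretch is in capitals.
miR-27a-3p: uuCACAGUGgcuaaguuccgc
miR-27b-3p: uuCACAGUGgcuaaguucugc

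Both miR-128 hairpins were abundant in blood at every age. Totals of all hairpins ran from 4884058 to 24253236 counts per library, with 5746508 to 13070018 counts in 30-month libraries and 16209205 to 22245787 counts in 2-month libraries. mir-128-1 had between 2353 counts (24 months replicate 4) and 13641 counts (24 months replicate 1), and mir-128-2 between 1962 and 10877 counts in the same libraries. Even the lowest value is far above a detection floor of 3 counts. By mean level mir-128-1 ranked 52 and mir-128-2 ranked 59 among the hairpins kept by the expression filter, which are those tested. Red cell microRNAs made up most of each library, and their list held 73.9% of counts on average in 30-month libraries and 76% in 2-month libraries. In a bulk sample, fewer cells of a type and less RNA per cell cannot be told apart.

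Levels are given first as CPM, counts scaled to a common library size, with library sizes scaled by the trimmed mean of M-values (TMM), in replicate order within each age. The 2-month libraries had 451, 399, 372, 312 and 407 CPM of mir-128-1. The 9-month libraries had 351, 436, 467, 457 and 456 CPM. The 15-month libraries had 352, 352, 314, 467 and 534 CPM. Within 15 months the values thus formed a lower set of 3 and a higher pair. The 24-month libraries had 633, 589, 386, 414 and 485 CPM, the widest range of any age. The 30-month libraries had 496, 513, 351, 510 and 503 CPM, of which 4 lay between 496 and 513 CPM and replicate 3 stood below. Every pair of ages overlapped. Against 2 months, 3.25% of all hairpins had no overlap at 9 months, 2.37% at 15 months, 10.4% at 24 months and 10.7% at 30 months. For both miR-128 hairpins the 2 highest libraries of all were those of 24 months replicates 1 and 2.

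mir-128-2 had a lower level than mir-128-1 in every library. Its 2-month libraries had 382, 342, 313, 266 and 330 CPM. Its 9-month libraries had 279, 355, 379, 382 and 378 CPM. Its 15-month libraries had 292, 287, 258, 379 and 426 CPM. The lowest library of each of these ages was the same for both hairpins. Its 24-month libraries had 505, 483, 309, 345 and 401 CPM. Its 30-month libraries had 403, 431, 301, 440 and 414 CPM. Across the 25 libraries the log2 levels of the hairpins had a Pearson r of 0.992 and a Spearman rho of 0.982. This is a description only, because they share a mature arm, library and scaling, and may share reads.

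**Figure D1:**
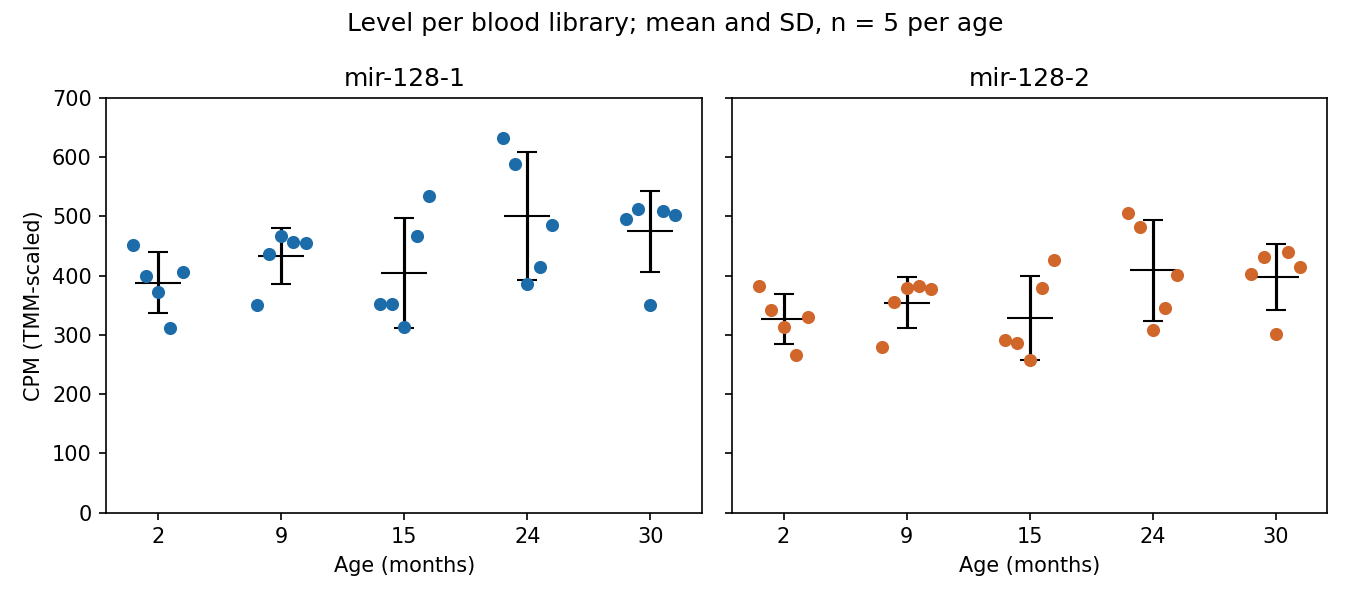
Level of mir-128-1 (left) and mir-128-2 (right) in TMM-scaled CPM (vertical axis) in each of 25 blood libraries by age in months (horizontal axis), with the mean and SD of 5 libraries as bars. The ages overlap for both hairpins, with 24 months replicates 1 and 2 highest and 30 months replicate 3 below the other old libraries.

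Ordered by mean level, mir-128-1 stood at 388.1 ± 51.3 CPM at 2 months, 403.9 ± 92.9 at 15 months, 433.4 ± 47.7 at 9 months, 474.6 ± 69.2 at 30 months and 501.4 ± 108 at 24 months (SD over 5 libraries). mir-128-2 had the same order, at 326.6 ± 42.2, 328.5 ± 70.8, 354.7 ± 43.7, 397.7 ± 56 and 408.8 ± 84.8 CPM. No neighbours in this order differed beyond their spread by the quasi-likelihood test of edgeR. For mir-128-1 the log2 changes between neighbours were 0.06 for 15 against 2 months, −0.10 for 15 against 9 months, 0.13 for 30 against 9 months and −0.08 for 30 against 24 months, with an SE of 0.16 each and edgeR adjusted p of 0.931, 0.997, 0.804 and 0.930. Of all hairpins 0% passed at 15 against 9 months, 1.48% at 30 against 9 months and 0% at 30 against 24 months. The spread of log2 level between libraries of 1 age was 0.254 for mir-128-1 and 0.248 for mir-128-2, against a median of 0.277 over the 152 hairpins with a mean of at least 10 CPM.

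The comparison of 24 with 2 months asks whether miR-128 differs between aged and young adult blood. The mean of mir-128-1 was 29.2% higher at 24 months, and 4 of 5 libraries lay above the 2-month mean. Its log2 change was 0.37 (SE 0.16, 95% interval 0.04 to 0.70), with an unadjusted p of 0.0315 and an edgeR adjusted p of 0.146 over all tested hairpins, so it did not pass the threshold of 0.05. mir-128-2 was 25.2% higher on average, with a log2 change of 0.32 (SE 0.16, edgeR adjusted p = 0.206). In this comparison 12.1% of the hairpins passed, and the median log2 change over all of them was −0.004. The changes of 61 hairpins were larger upward than that of mir-128-1.

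At 30 against 2 months, the widest interval, the log2 change was 0.29 for mir-128-1 (SE 0.16, 95% interval −0.04 to 0.62) and 0.28 for mir-128-2 (SE 0.16, 95% interval −0.04 to 0.61). Both had an edgeR adjusted p of 0.252, while 14.2% of all hairpins passed. For each hairpin 4 of 5 libraries of 30 months lay above the highest library of 2 months, and replicate 3 of 30 months lay below the 2-month mean. The intervals hold rises of up to 0.62 log2 units as well as no change. Without 30 months replicate 3 the log2 changes were 0.42 and 0.41 (edgeR adjusted p = 0.0792 and 0.0806).

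Earlier in adult life the differences were smaller. At 9 against 2 months the log2 change was 0.16 for mir-128-1 and 0.12 for mir-128-2 (SE 0.16 each, edgeR adjusted p = 0.851 and 0.872), where 2.07% of hairpins passed. Without 9 months replicate 1 these values were 0.25 and 0.22, and without 2 months replicate 4 they were 0.10 and 0.06. At 15 against 2 months it was 0.06 and 0.008 (SE 0.16 each, edgeR adjusted p = 0.931 and 0.990), where 1.48% passed. Without 15 months replicate 5, the highest of its age, these values were −0.03 and −0.07. Between any of the 5 ages the adjusted p was 0.454 for both hairpins, where 7.99% of all hairpins passed. The linear trend was 0.12 log2 units per 10 months for mir-128-1 and 0.11 for mir-128-2 (SE 0.05 each), with unadjusted p of 0.0284 and 0.0279 and edgeR adjusted p of 0.102 and 0.101, where 19.8% of hairpins passed. Of the 2 hairpins 0 therefore passed in any of these 6 comparisons, and likewise 0 with DESeq2 and 0 with limma-voom. The trend did pass without 30 months replicate 3, at 0.16 and 0.15 log2 units per 10 months (edgeR adjusted p = 0.0217 and 0.0239), and for mir-128-2 without 2 months replicate 1, at 0.15 (edgeR adjusted p = 0.0491). Shares of all hairpins that passed in those fits are not given here.

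How libraries were scaled decided whether the older levels passed. TMM factors ran from 0.907 to 1.23 at 30 months and from 0.803 to 0.961 at 2 months. With library totals in place of TMM, mir-128-1 had 504, 534, 431, 462 and 553 CPM at 30 months, against 362, 347, 343, 282 and 391 CPM at 2 months. mir-128-2 then had 410, 448, 369, 399 and 455 CPM at 30 months, against 307, 298, 289, 240 and 317 CPM at 2 months. On this scale every 30-month library lay above every 2-month library for both hairpins, as was the case for 12.7% of all hairpins. Every 24-month library did so too, as for 14.2% of hairpins. The log2 changes were 0.72 and 0.68 at 24 months (edgeR adjusted p = 0.00123 and 0.00147) and 0.53 and 0.52 at 30 months (edgeR adjusted p = 0.0187 and 0.0144), where 20.4% and 15.1% of hairpins were called higher. The median of all hairpins moved with them, to 0.36 at 24 months and 0.20 at 30 months. Relative to that median mir-128-1 stood 0.37 higher at 24 months by library totals and also 0.37 by TMM, and at 30 months 0.32 by library totals and 0.33 by TMM. The place of mir-128-1 among all hairpins was thus near the same on both scales, with 18.9% and 18% of hairpins above it at 24 months.

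**Figure D2:**
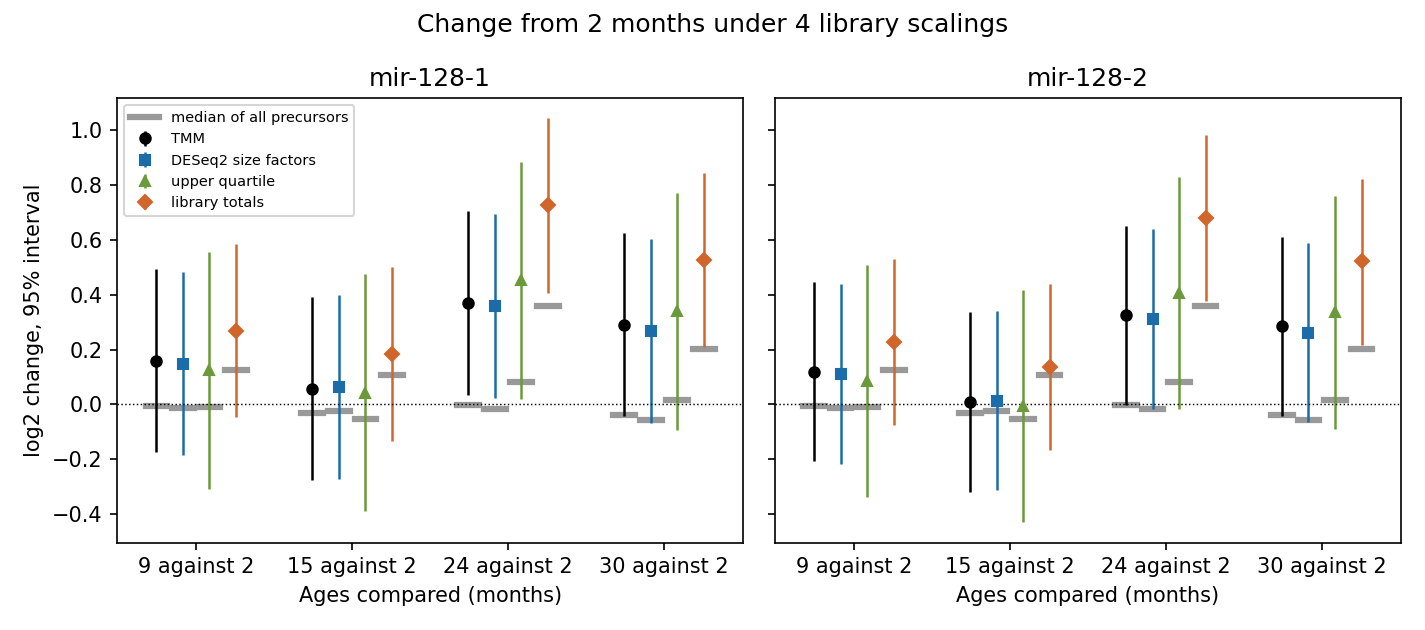
log2 change from 2 months (vertical axis) of mir-128-1 (left) and mir-128-2 (right) at 4 older ages under 4 library scalings, with 95% intervals, and grey bars for the median over all tested hairpins. Points and grey bars move up together under library totals, where the 24- and 30-month intervals lie above 0.

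Sequencing lane is given in the column names. The 3 libraries of lane 3, of 9, 15 and 24 months, had a mean of 363 CPM of mir-128-1 (351 to 386), while the means of the other 5 lanes were 404 to 479 CPM, with lowest libraries of 312 CPM in lane 7 and 314 CPM in lane 4. Lane 3 had a mean TMM factor of 1.25 and the other lanes 0.952 to 0.996. By library totals the lane 3 libraries had 415, 446 and 498 CPM at 9, 15 and 24 months, beside age means of 416, 392 and 570 CPM. Without those 3 libraries, an exclusion chosen after seeing the data, the 24 against 2 months changes were 0.52 and 0.47 for mir-128-1 and mir-128-2 (edgeR adjusted p = 0.0420 and 0.0455). The share of all hairpins that passed in that fit is not given here, so whether the pair stands out there cannot be told. Within lanes, 30 minus 2 months for mir-128-1 was 0.35 in lane 5, 0.43 in lane 6, 0.72 in lane 7 and −0.21 in lane 8, each from 1 or 2 old libraries and 1 young one. Likewise 24 minus 2 months was −0.13 in lane 4, 0.28 in lane 5, 1.02 in lane 7 and 0.53 in lane 8, from 1 library of each age. Lanes 3 and 4 held no 30-month library, lane 3 no 2-month library and lane 6 no 24-month library, and the part of lane in these values was not tested beyond a fit with lane as a term, which gave 0.44 and 0.40 at 24 against 2 months (edgeR adjusted p = 0.0796 and 0.0968) and 0.22 for each hairpin at 30 against 2 months (edgeR adjusted p = 0.405 and 0.387).

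Within a library the counts of the hairpins can be compared without any scaling. mir-128-1 had more counts than mir-128-2 in 25 of 25 libraries, by 1.16 to 1.26 times with a median of 1.21. The difference made up 13.8% to 20.4% of the mir-128-1 count. The SD of the log2 ratio over all libraries was 0.0343, beside the 0.028 that counting error alone would give if the counts were independent. Whether they are is not known, because the rule for reads that fit both hairpins is not given. Over the same libraries the level of mir-128-1 lay between 312 and 633 CPM.

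By age the mean log2 ratio was 0.248 ± 0.031 at 2 months, 0.291 ± 0.028 at 9 months, 0.295 ± 0.023 at 15 months, 0.293 ± 0.028 at 24 months and 0.254 ± 0.036 at 30 months (SD over 5 libraries). The middle ages stood above both ends by under 0.05. Against 2 months the differences were 0.043, 0.047, 0.045 and 0.005 at 9, 15, 24 and 30 months. A two-sided exact permutation test over the libraries gave p of 0.0556, 0.0397, 0.0556 and 0.817, or 0.0741, 0.0741, 0.0741 and 0.817 adjusted over the 4 comparisons, so none passed, and the smallest p the design allows is 0.00794. All 5 libraries of 9, 15 and 24 months lay above the 2-month mean, but 2 months replicate 5, at 0.301, lay among them. Without that library, singled out after its value was seen, the highest 2-month ratio was 0.248 and the lowest of those 3 ages 0.257. The groups then separate fully, so the exact permutation test could only give a p at or near the smallest their sizes allow. Adjusted over the 4 comparisons, its p was 0.0212 at each of those 3 ages, with differences of 0.056 to 0.060. The 3 comparisons share the 2-month libraries, so these values add no separate evidence.

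**Figure D3:**
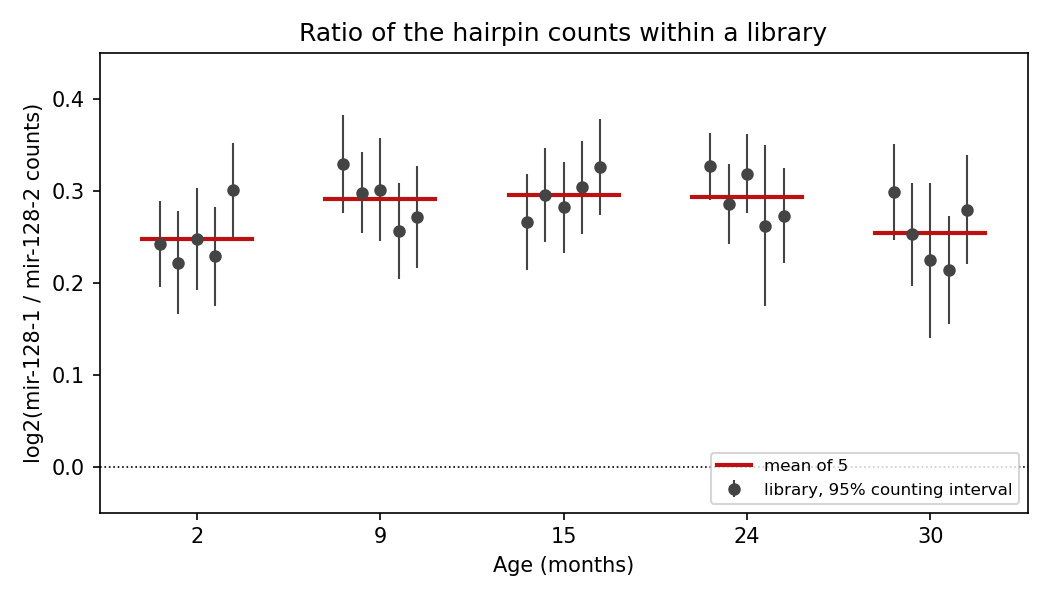
log2 ratio of mir-128-1 to mir-128-2 counts (vertical axis) in each library by age in months (horizontal axis), with exact binomial 95% intervals for counting error only and the mean of 5 libraries as a red line. All 25 points lie between 0.214 and 0.329, and the age means lie between 0.248 and 0.295.

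Other microRNAs with hairpins at separate loci give the setting for this ratio. Mature arms of identical sequence joined 20 pairs of hairpins with a mean of at least 20 counts each, of 1001 hairpins that matched the RefSeq sequence table by name. Some hairpins numbered as copies were not among the 20 and have no ratio here. Of these, mir-92a-1 and mir-92a-2 had means of 27080 and 8535 CPM, and mir-7a-1 and mir-7a-2 had 20.29 and 2.45 CPM. Nearer to equal were let-7a-1 and let-7a-2 at 390.7 and 386.5 CPM, and mir-133a-1 and mir-133a-2 at 25.23 and 25.44 CPM. For 12 of the 20 pairs the mean log2 ratio was within 0.05 of 0. The most abundant of the 20 were mir-16-1 and mir-16-2 at 0.002 ± 0.005, mir-26a-1 and mir-26a-2 at 0 ± 0.01 and mir-30c-2 and mir-30c-1 at 0.002 ± 0.01 (SD over 25 libraries). Their hairpins had nearly equal counts. let-7f-2 and let-7f-1 came next at 0.122 ± 0.02. The miR-128 hairpins stood at 0.276 ± 0.034, a larger mean ratio than that of 18 other pairs of the 20. Among the 20 only mir-125b-2 and mir-125b-1 had a larger one, at 0.455 ± 0.195. mir-24-2 and mir-24-1, copies in the mir-23/27/24 clusters, stood close by at 0.271 ± 0.087. For any of these pairs, which hairpin a read that fits both came from cannot be read from the table. Levels of mir-128-1 and mir-128-2 are uncertain to that extent. With their counts added into 1 feature the log2 changes were 0.36 at 24 months and 0.27 at 30 months (SE 0.17 each, edgeR adjusted p = 0.172 and 0.307).

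**Figure D4:**
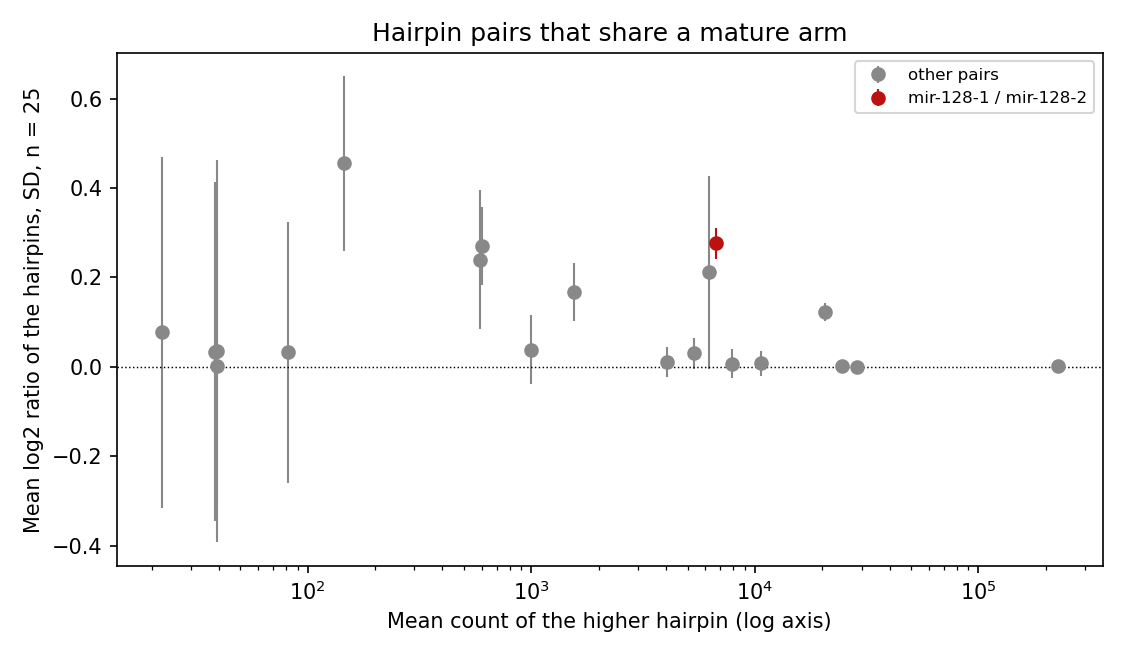
Mean log2 ratio of the hairpins in each of 20 pairs that share a mature arm (vertical axis, SD over 25 libraries) against the mean count of the higher hairpin (horizontal log axis). The 3 most abundant of these 20 pairs lie near 0, while the miR-128 hairpins, in red, lie at 0.276 with an SD of 0.034.

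miR-128 was more abundant in these libraries than each member of a list of microRNAs known from brain, which was chosen with earlier results known. Of that list, 19 hairpins were in the table and 9 passed the expression filter. The highest of the list was mir-219a-1, an oligodendrocyte microRNA, at a mean of 3.31 CPM by library totals, and the miR-128 hairpins averaged 122 times that level. mir-338, of the same cell type, had 2.62 CPM and mir-9-1, of neural progenitors and neurons, had 2.5 CPM. mir-124-3, of neurons, had 0.473 CPM, with a highest count of 21. Counts of different microRNAs are not corrected for how well the kit captures each, so these ratios are ratios of counts. Of the 9 tested brain hairpins 0 passed at 30 against 2 months, with a median log2 change of −0.13 against −0.04 over all hairpins, of which 14.2% passed. At 24 against 2 months only mir-338 of the 9 passed, where 12.1% of all hairpins did, with a log2 change of 0.82 (SE 0.23, edgeR adjusted p = 0.0233).

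mir-27a and mir-27b, whose 3p strands carry the miR-128-3p seed shifted by 1 base, lay at both sides of its level. mir-27a, of the cluster with mir-23a and mir-24-2, averaged 123.1 ± 31.7 CPM in 24-month libraries, against 61.32 ± 10.6 CPM in 2-month libraries (SD, n = 5 each). It rose by 1.01 log2 units at 24 months (SE 0.19, edgeR adjusted p = 0.0012) and by 0.58 at 30 months (SE 0.19, edgeR adjusted p = 0.0426). mir-27b, of the cluster with mir-23b and mir-24-1, averaged 2247 ± 408 CPM in 24-month libraries, against 1763 ± 463 CPM in 2-month libraries. Its log2 change was 0.35 at 24 months (SE 0.21, edgeR adjusted p = 0.304) and 0.28 at 30 months (SE 0.21, edgeR adjusted p = 0.418), so it did not pass. These comparisons share the 2-month libraries, and the difference between mir-27 and mir-128 was not tested.

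Markers of blood cells are given beside these values, for a comparison in which 14.2% of all hairpins passed. For 30 against 2 months the lymphocyte list, with mir-150 of mature lymphocytes and the mir-181 family of T cell development, had 0 of 10 hairpins past the threshold and a median log2 change of −0.03. Its summed level was 2220 to 3450 CPM in 30-month libraries, against 2530 to 3580 CPM in 2-month libraries. The list of all leukocytes, mir-142a and mir-142b, which lie on opposite strands of 1 locus, had 15200 to 18800 CPM in 30-month libraries, against 13600 to 16600 CPM in 2-month libraries, with 0 of 2 past the threshold. In the myeloid list 1 of 3 tested hairpins rose, namely mir-223 of neutrophils and monocytes, by 1.44 log2 units (SE 0.17, edgeR adjusted p = 1.65e-06), while mir-146a had 1.15 (SE 0.40, edgeR adjusted p = 0.0519). The myeloid sum was 3160 to 7170 CPM at 30 months, against 4060 to 8400 CPM at 2 months, and it is mostly mir-21a, also made in many other cells, which averaged 5500 ± 1810 CPM at 30 months and 6060 ± 1730 CPM at 2 months. In the red cell list 1 of 8 fell, namely mir-144 of erythroid cells at −1.41 (SE 0.35, edgeR adjusted p = 0.0101). The list had a summed level of 584000 to 852000 CPM at 30 months, against 795000 to 946000 CPM at 2 months. As a share of counts, with no TMM factor, it held 71.8% to 77.2% at 30 months and 75.1% to 76.6% at 2 months. mir-486a and mir-486b overlap, so their reads may count in both. In the platelet list 1 of 7 rose, namely mir-222 (0.31, SE 0.10, edgeR adjusted p = 0.0426), and 3 fell. Among those were mir-126a at −1.35 (SE 0.34, edgeR adjusted p = 0.0101) and mir-126b at −1.42 (SE 0.36, edgeR adjusted p = 0.011), which overlap and are also of endothelium. The other was mir-199a-1 at −1.66 (SE 0.39, edgeR adjusted p = 0.00755), with a low mean of 0.773 CPM. The platelet sum was 339 to 622 CPM at 30 months, against 349 to 778 CPM at 2 months. No hairpin of the blood cell lists was at 0 in all libraries. The part of cell composition in the miR-128 levels was not tested.

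The hairpins whose log2 levels over the 25 libraries were most like the mean of the miR-128 pair were sought among 150 others with a mean of at least 10 CPM. Likeness was measured by Pearson's r, as a description with no test, since all values share libraries and scaling. The 5 most alike were mir-99b with r of 0.788, mir-151 with 0.779, mir-330 with 0.770, mir-132 with 0.760 and mir-351 with 0.747. With each age centred on its own mean, r was 0.744, 0.739, 0.682, 0.717 and 0.638 in the same order, and with each lane centred it was 0.804, 0.820, 0.852, 0.734 and 0.744. Without 15 months replicate 3 and 2 months replicate 4, the libraries farthest from the median, it was 0.806, 0.788, 0.705, 0.756 and 0.659. Other hairpins came among the most alike under those settings. mir-99a had the highest r with ages centred, at 0.774, and 0.726 without the farthest libraries, and its log2 change at 30 against 2 months was 0.03 (SE 0.31, edgeR adjusted p = 0.969). mir-339 had 0.848 and mir-125a 0.838 with lanes centred, below mir-330 and above the other 4. By library totals r was 0.824 for mir-99b, 0.847 for mir-151, 0.903 for mir-330, 0.835 for mir-132 and 0.857 for mir-351. On that scale mir-28a at 0.883 and mir-23a at 0.862 came next after mir-330, so the 5 most alike depend on scaling. An r over 0.5 was found for 21 of the 150 hairpins and one under −0.5 for 34.

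Of the 5 most alike by r over all libraries, 4 passed at 30 against 2 months, where 14.2% of all hairpins and neither miR-128 hairpin did. They were picked over the same libraries and ages, so this count is a description. mir-99b averaged 64.6 ± 22.9 CPM in 30-month libraries, against 33.5 ± 6.32 CPM in 2-month libraries, and rose by 0.95 log2 units (SE 0.28, edgeR adjusted p = 0.0251). mir-132, known from neurons and from immune activation, averaged 21.9 ± 3.19 CPM in 30-month libraries, against 15.5 ± 2.47 CPM in 2-month libraries, and rose by 0.50 (SE 0.14, edgeR adjusted p = 0.0229). mir-330 rose by 0.67 (SE 0.21) and mir-351, of the X-linked mir-322 cluster, by 0.66 (SE 0.20), with edgeR adjusted p of 0.0380 and 0.0322. mir-151, in an intron of Ptk2, did not pass, with a log2 change of 0.25 (SE 0.19, edgeR adjusted p = 0.429). The differences between these changes and those of miR-128 were not tested.

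**Figure D5:**
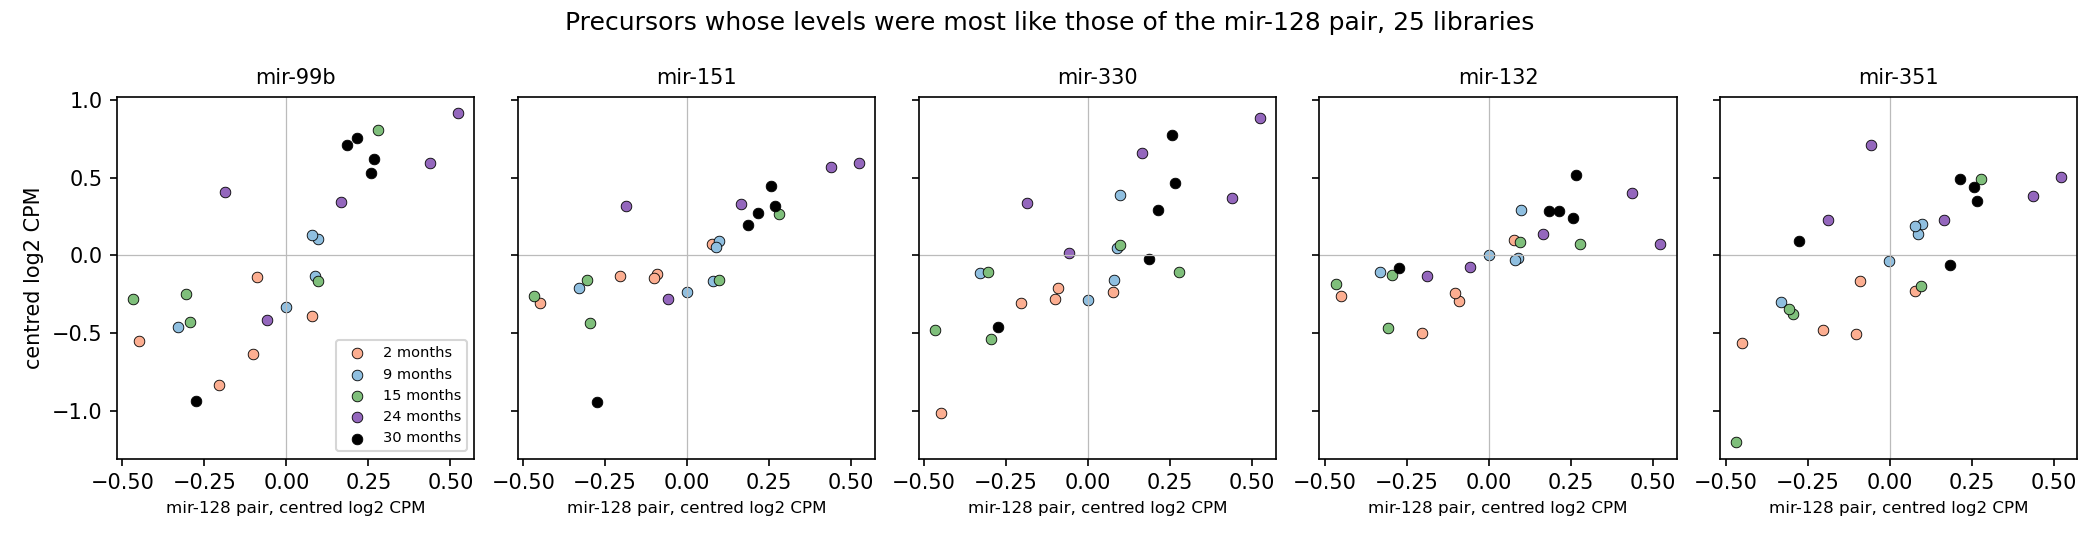
Log2 CPM minus its mean over 25 libraries for mir-99b, mir-151, mir-330, mir-132 and mir-351 (vertical axes) against the mean of the miR-128 hairpins on the same scale (horizontal axes), with 1 point per library coloured by age. Points run upward in each panel, with r between 0.747 and 0.788.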

How the data were processed

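Small RNA from 25 mouse blood samples was sequenced by the authors. The deposited table gives raw counts of reads per microRNA hairpin and library. Per the submitters' processing notes, SAMtools 1.3.1-9, Trimmomatic 0.36 and bcl2fastq 1.8.4 were used, with no role stated. The aligner, counter, strand use, build and the rule for reads that fit several hairpins were not given in the sources used here. All 25 columns matched a sample title by age and number. Replicate numbers follow accession order and pair no animals. Titles carry separate numbers but do not state that each is 1 animal, and p-values set differences against the spread between these libraries.

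Of 1193 hairpins, 338 passed the default filter of edgeR 4.0.16 by age in R 4.3.3. The quasi-likelihood test used TMM factors, robust dispersions and 1 fit of all 25 libraries, with Benjamini-Hochberg adjustment over the 338 and a threshold of 0.05. It was tested on simulated data. Log2 changes have the younger age as base, and log2 levels used a pseudocount of 0.5 CPM. The ratio used a pseudocount of 0.5 counts and an exact permutation test in Python 3.11.15. Binomial intervals and floors cover counting error only, as the kit adds no molecular identifiers. Alternatives were other scalings, filters and tools (DESeq2 1.42.0, limma 3.58.1), lane as a term, thinned libraries, added counts, the 10 compared libraries alone and leaving out libraries. Sequences and positions are those of RefSeq for GRCm38.p6, and introns those of GENCODE vM21.

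Hairpins named beside the pair follow a rule: mir-27a and mir-27b, others with the seed, the 5 most alike, up to 3 past the threshold per list and up to 4 most abundant copy pairs. mir-24-2 with mir-24-1, mir-125b-2 with mir-125b-1, mir-146a, mir-21a, mir-99a, mir-339, mir-125a and the brain list members were named after their values were seen. So were mir-92a-1, mir-92a-2, mir-7a-1, mir-7a-2, let-7a-1, let-7a-2, let-7c-1, let-7c-2, mir-3074-1, mir-3074-2, mir-133a-1, mir-133a-2, mir-28a and mir-23a. The members and lists were chosen with earlier results of these data known.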

Additional observations from a re-analysis of the deposited data

Results flagged for a closer look

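In groups of 5 libraries, a library was marked where its gap to the nearest other exceeded 0.71 of the group's range (Dixon's 95% value). Of 15 groups examined, 4 were marked, where chance marks about 1 in 20, and the miR-128 hairpins are not independent of each other. For mir-128-1, 9 months replicate 1 had 351 CPM with the nearest library at 436 CPM, and 30 months replicate 3 had 351 CPM with the nearest at 496 CPM. For mir-128-2 the same libraries had 279 CPM, with the nearest at 355 CPM, and 301 CPM, with the nearest at 403 CPM. 9 months replicate 1 is a lane 3 library with a TMM factor of 1.18, and 30 months replicate 3 has a total of 5746508 counts and a factor of 1.23. By library totals these libraries had 415 and 431 CPM of mir-128-1. The part of lane, depth or scaling in these low values was not tested.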

How the results depend on the processing

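With library totals in place of TMM, changes passed for mir-128-1 and mir-128-2 at 24 against 2 months (0.7247 and 0.6787), at 30 against 2 months (0.5262 and 0.5208) and per 10 months (0.2227 and 0.2198), and the adjusted p over any age was 0.009 and 0.00701. By construction that scaling moves all hairpins of a library together. Without the 3 libraries of lane 3, an exclusion chosen after seeing the data, 24 against 2 months passed at 0.5153 and 0.4743 and the trend at 0.1431 and 0.1402. Shares of all hairpins passing without lane 3 are not given here. The cause was not tested. At 15 against 2 months mir-128-2 turned negative with upper quartile factors (-0.0072), limma-voom (-0.0091) and the 10 compared libraries alone (-0.0053). With single libraries left out, 15 against 2 months ran from -0.028 to 0.1901 for mir-128-1 and from -0.0675 to 0.1379 for mir-128-2, and the trend from 0.1142 to 0.1572 and from 0.1141 to 0.1521. The log2 ratio of the hairpins ran from 0.0337 to 0.0563 at 9 months, 0.0387 to 0.0597 at 15 months, 0.0368 to 0.0583 at 24 months and -0.0057 to 0.0186 at 30 months, each against 2 months. Over all hairpins, calls numbered 44 with library totals against 27 for any age, 4 with upper quartile factors against 7 at 9 months, 3 with library totals against 5 at 15 months, and 24 with upper quartile factors and 72 with library totals against 41 at 24 months. At 24 against 2 months, with library totals, 69 of the calls were higher and 3 lower, against 26 higher and 15 lower with TMM. At 30 against 2 months they were 51 and 6, against 31 and 17. At 9 against 2 months, 0 of 22 alternatives moved either hairpin past the threshold. The smallest library had 4884058 counts, and with all libraries thinned to it 30 against 2 months gave 0.3113 for mir-128-1. No paired analysis was possible because replicate numbers follow accession order and mark no shared animal or litter.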
